A study of Mus musculus with 12 samples.

Results

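The genes that encode Wnt ligands, their receptors and their secreted antagonists were examined in 4 populations of cancer-associated fibroblasts sorted from mouse mammary tumours. Members were taken by name from the protein-coding genes of the expression table: genes called Wnt, Fzd, Sfrp or Rspo with a number, genes whose name begins with Dkk, and Lrp5, Lrp6, Wif1, Ror1, Ror2, Ryk, Axin2 and Notum. This gave 50 of 55487 genes: 19 Wnt ligands, 4 R-spondins, 10 Frizzled receptors, 5 co-receptors, 11 antagonists and Axin2. The rule itself used names only.

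The tumours came from 3 untreated FVB mice of the MMTV-PyMT genotype, 10 weeks old, whose transgene puts polyoma middle T under the mouse mammary tumour virus promoter, which is active in mammary epithelial cells. Each population was isolated from each mouse (mice 27, 30 and 31), which gave 12 libraries. Every population came from a tumour, so no sample of normal tissue was among them. All sorted cells were live, positive for PDGFRb and negative for CD45, CD31 and EPCAM. The vcaf gate took cells without Ly6C or PDGFRa and with CD146, an adhesion molecule of pericytes and endothelium. The icaf gate took Ly6C+ cells. The m2cafpos and m2cafneg gates both took Ly6C-, CD146-, PDGFRa+ cells, with NCAM on m2cafpos cells and without it on m2cafneg cells. The names are those of the labels, and a title spelt 27_vacf was taken to mean vcaf from mouse 27.

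Wnts are secreted, lipid-modified glycoproteins that bind a Frizzled receptor together with a co-receptor. With Lrp5 or Lrp6 the signal stabilises beta-catenin, which then acts with TCF/LEF factors on target genes such as Axin2. With Ror1, Ror2 or Ryk it acts on the cytoskeleton and cell polarity. R-spondins keep Frizzleds on the cell surface, whereas Sfrp proteins and Wif1 bind Wnts and some Dkk proteins act on Lrp5 and Lrp6. In the mammary gland the pathway is known for its part in epithelial growth, and Wnt1 is a classical oncogene of mouse mammary tumours.

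The promoters of 3 members whose levels are described below are shown as examples of windows that hold a TCF/LEF motif or a TATA box. Windows of Fzd1, Fzd7, Ryk, Wif1, Dkk1 and Wnt3 also held a match and are not printed. Each runs from 250 bases before to 50 bases after a RefSeq transcription start (GRCm38.p6), 5′ to 3′ on the strand of the gene, with the matches in capitals. In Wnt11 (chr7:98834862-98835161, plus strand) the capitals mark a TCF/LEF match on the opposite strand, 51 bases before the start, and TATAAA, 29 bases before it. In Dkk2 (chr3:132085042-132085341, plus strand) they mark TATAAA, 32 bases before the start. In Wnt5b (chr6:119449337-119449636, minus strand) they mark CTTTGAT, 71 bases before the start. RefSeq gives Wnt11 and Wnt5b other starts too, and the remaining windows of both (1 for Wnt11 and 2 for Wnt5b) held no match.
Wnt11: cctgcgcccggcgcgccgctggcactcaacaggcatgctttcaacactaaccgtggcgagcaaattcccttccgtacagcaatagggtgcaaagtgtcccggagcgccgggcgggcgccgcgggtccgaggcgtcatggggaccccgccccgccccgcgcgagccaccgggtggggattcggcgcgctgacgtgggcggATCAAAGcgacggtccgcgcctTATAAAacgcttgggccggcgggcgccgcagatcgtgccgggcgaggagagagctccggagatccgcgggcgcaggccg
Dkk2: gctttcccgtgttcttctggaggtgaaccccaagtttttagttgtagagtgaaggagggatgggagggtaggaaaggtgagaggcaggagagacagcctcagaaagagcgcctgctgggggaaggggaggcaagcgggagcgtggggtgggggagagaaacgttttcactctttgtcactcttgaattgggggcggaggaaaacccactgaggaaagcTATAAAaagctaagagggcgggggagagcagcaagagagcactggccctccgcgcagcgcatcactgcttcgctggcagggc
Wnt5b: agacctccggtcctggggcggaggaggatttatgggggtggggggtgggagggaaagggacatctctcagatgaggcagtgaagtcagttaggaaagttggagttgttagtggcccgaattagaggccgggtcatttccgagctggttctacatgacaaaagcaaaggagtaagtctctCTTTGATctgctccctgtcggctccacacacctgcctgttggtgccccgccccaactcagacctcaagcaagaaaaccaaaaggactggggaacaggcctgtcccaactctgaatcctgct
The motifs searched on both strands were CTTTGNN for TCF/LEF, where each N may be A or T, and TATAAA for the TATA box. RefSeq windows were matched for 33 members (36 windows). A TCF/LEF form was found in 5 of the 36 windows (13.9%) and in 16.9% of all 32851 windows of this length. TATAAA was found in 6 of the 36 (16.7%) and in 13.6% of all windows. The window of Axin2 held no match to either. A match describes letters and is not evidence of binding.

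The libraries held 43898839 to 55363203 reads, so that a read was worth 0.0181 to 0.0228 CPM (reads per 1000000 assigned to genes), and a count of 0 allowed up to 0.0542 to 0.0683 CPM (3 reads, counting error only). Of the genes of the sort, Ly6c1 averaged 1106 CPM in icaf, Mcam (CD146) 269 CPM in vcaf, Ncam1 585 CPM in m2cafpos and Pdgfra 6.73 CPM in vcaf. Every fibroblast marker, Pdgfra included, was at or above 358 CPM in every library of icaf, m2cafpos and m2cafneg. Fibroblast markers summed to 8759 to 10961 CPM in vcaf, 69116 to 73492 CPM in icaf, 125561 to 134582 CPM in m2cafpos and 65045 to 83482 CPM in m2cafneg. Pericyte and smooth muscle markers summed to 35812 to 57051 CPM in vcaf and 154 to 546 CPM in the others. The 15 epithelial markers, Epcam included, were above 0 in every library despite the EPCAM gate. They summed to 7481 to 14746 CPM in vcaf, 979 to 2809 CPM in icaf, 579 to 2724 CPM in m2cafpos and 5182 to 11215 CPM in m2cafneg. Macrophage markers summed to 198 to 377 CPM in vcaf, 43.7 to 72.1 CPM in icaf, 49.0 to 88.6 CPM in m2cafpos and 198 to 280 CPM in m2cafneg. Endothelial markers summed to 198 to 375 CPM in vcaf, 142 to 251 CPM in icaf, 25 to 61.2 CPM in m2cafpos and 80.0 to 292 CPM in m2cafneg. Schwann and nerve markers summed to 175 to 236 CPM in vcaf, 28.9 to 51.7 CPM in icaf, 27.3 to 51.8 CPM in m2cafpos and 89.6 to 173 CPM in m2cafneg. Values are given below for mice 27, 30 and 31 in that order. In bulk libraries such as these, fewer cells of a type and less RNA per cell cannot be told apart.

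The question of the comparisons was which members of the pathway each population transcribes. Of the 50 members, 34 had at least 1 CPM in at least 3 libraries and were tested by limma on log2(CPM + 1), with Benjamini-Hochberg adjustment over 15456 genes. Of the 34, 30 differed among the 4 populations at an adjusted p under 0.05, and 73.0% of all genes tested did so. The other 4 were Lrp6, Ryk, Wif1 and Axin2. Wnt10b and Rspo3 passed the level filter only through icaf, where they were highest. Both are among the 30 and in the counts below that involve icaf, but the filter fixed their direction, so their calls are not results. The remaining 16 members, 9 Wnts, 2 R-spondins, 2 Frizzleds and 3 antagonists, were too low to test.

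**Figure D1:**
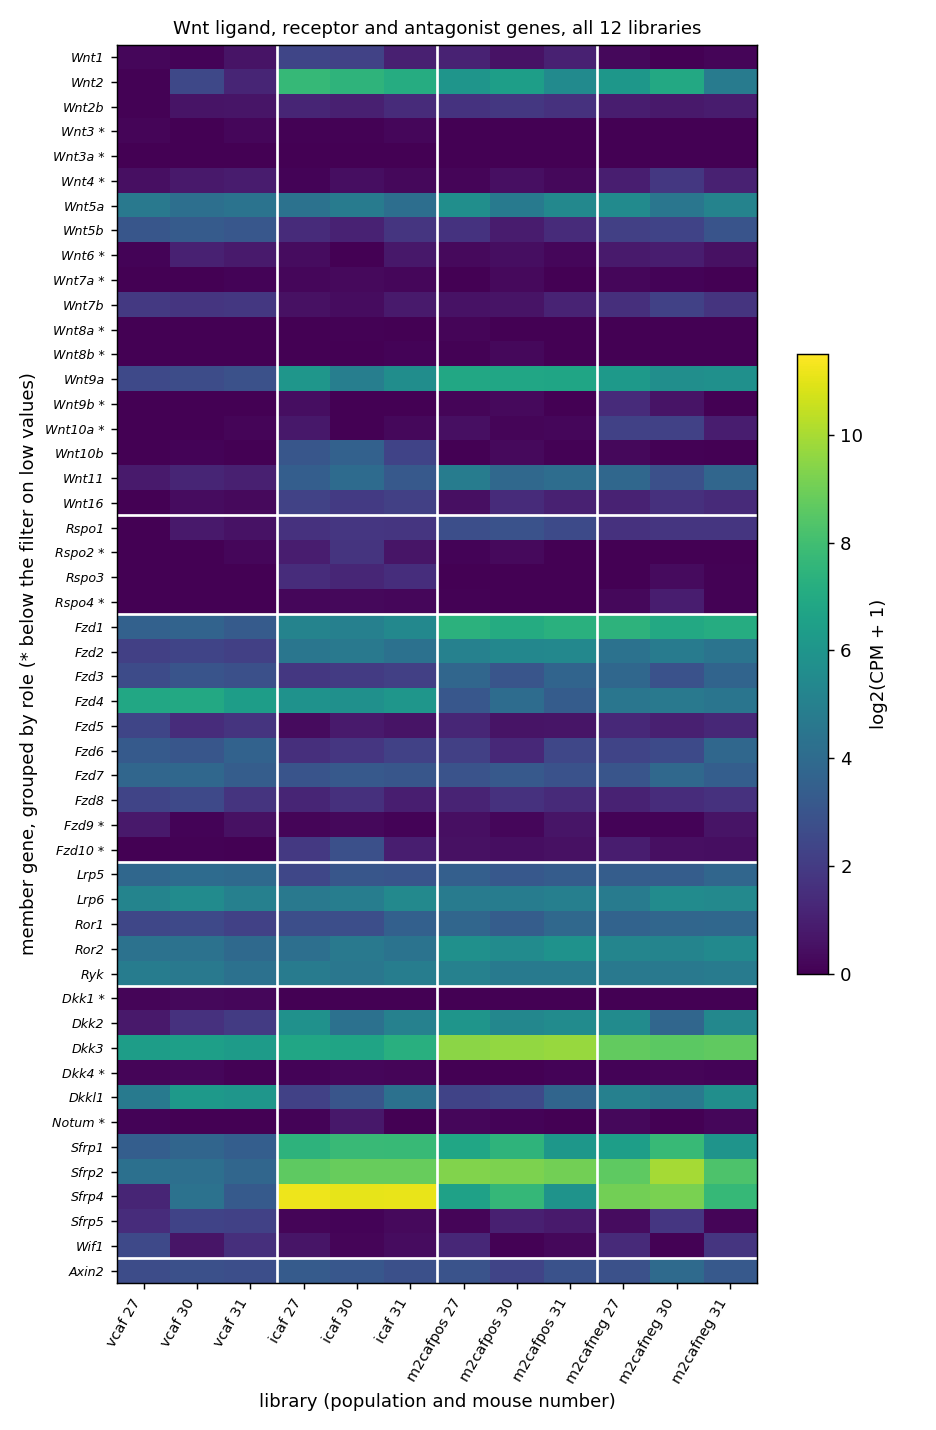
Heatmap of the 50 members (rows, grouped by role) in the 12 libraries (columns, by population and mouse), coloured by log2(CPM + 1); an asterisk marks members below the filter. Sfrp4 is brightest in the 3 icaf libraries, with 2129.7 to 2345 CPM, and Dkk3 in the 3 m2cafpos libraries, with 729 to 841 CPM.

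Set against the other 3 populations averaged, vcaf had 10 members higher and 18 lower, where 53.3% of all genes were higher and 14.2% lower. The median log2 fold change of the 34 members was -0.59 (-0.73 with Rspo3, which had no read in vcaf, at its bound), and that of all genes 0.38. This shift of all genes depended on scaling: with median-of-ratios scaling it was 0.02, and 23.5% of genes were then higher and 24.7% lower. The members then stood at 7 higher and 22 lower, so values in vcaf are to be read against the shift. In icaf against the mean of the m2caf gates, 7 members were higher and 11 lower, with 12.1% and 14.2% of all genes. The 7, like the 18 lower in vcaf, include Wnt10b and Rspo3, whose high place in icaf the filter fixed. Both counts include Wnt1 too, which would not have passed the filter without icaf. The medians were -0.36 for the members and -0.01 for all genes. In m2cafpos against m2cafneg, 6 members were higher and 4 lower, while 3.51% and 22.6% of all genes were. Here the median of all genes was -0.23, and with median-of-ratios scaling it was 0.01, with 8.31% of genes higher and 8.53% lower, and 7 members higher and 4 lower. Another fit took the mean log2(CPM + 1) of the epithelial markers in each library, and not their sum, as a covariate. In it 18 of the 28 calls in vcaf, 9 of the 18 in icaf and 2 of the 10 in m2cafpos against m2cafneg held. The last were Dkk3 and Fzd4. Over all genes that fit called 22% higher and 8.17% lower in vcaf, 5.88% and 6.07% in icaf, and 0.317% and 0.815% in m2cafpos against m2cafneg. In m2cafpos against m2cafneg, calls were lost at values near or above those reported below for Wnt9a (0.92, limma adjusted p = 0.245), Rspo1 (1.0, 0.158), Ror2 (0.60, 0.258) and Wnt2b (0.95, 0.16). At values smaller in size than those reported below, calls were lost for Fzd2 (0.53, 0.312), Wnt7b (-0.66, 0.357), Wnt5b (-0.35, 0.639) and Dkkl1 (-0.52, 0.72).

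The 5 further pairs gave 11 members higher and 17 lower in vcaf than in icaf (46.1% and 13.9% of all genes), 10 higher and 17 lower in vcaf than in m2cafpos (55.5% and 12.4%), and 3 higher and 14 lower in vcaf than in m2cafneg (26.6% and 11.3%). They gave 6 higher and 9 lower in icaf than in m2cafpos (15.0% and 8.86%), and 6 higher and 9 lower in icaf than in m2cafneg (8.77% and 20.9%). Over the pairs, 13 members were lower in vcaf than in each of the other 3 populations, as were 7.17% of all genes. They were Wnt2, Wnt9a, Wnt11, Wnt16, Rspo1, Fzd1, Fzd2, Ror1, Dkk2, Dkk3, Sfrp1, Sfrp2 and Sfrp4. In icaf, 5 members were higher than in each other population (4.74% of all genes). Of these, Wnt10b and Rspo3 had to be, having passed the filter only through icaf, and Wnt1 needed icaf to pass it. The 5 were Wnt1, Wnt10b, Wnt16, Rspo3 and Sfrp4. With the mouse as a block, Wnt2 (adjusted p = 0.02 against m2cafpos and 0.0143 against m2cafneg) and Sfrp1 (0.0345 and 0.0176) joined them. In m2cafpos, 5 were (1.71% of all genes): Wnt9a, Rspo1, Fzd2, Ror2 and Dkk3. In vcaf, 3 were (21.4% of all genes), namely Fzd4, Fzd8 and Sfrp5, and all 3 lost that place with median-of-ratios scaling and with edgeR. With the mouse as a block, Wnt5b (0.0329 against m2cafneg) and Fzd5 (0.0428) joined them. A single member was lower than in each other population in icaf (Fzd3, 3.83% of all genes) and in m2cafpos (Fzd4, 5.09%). Of these places, 19 settings kept those of Wnt2, Wnt9a, Wnt11, Rspo1, Fzd1, Fzd2, Dkk2, Sfrp1 and Sfrp2 in vcaf and of Dkk3 and Fzd4 in m2cafpos throughout. The least stable were Ror2 in m2cafpos (kept in 7 of 19), Wnt1 in icaf (9), Wnt16 in icaf (10), Sfrp5 in vcaf (10) and Fzd8 in vcaf (12). Of these, Wnt1, Wnt16, Sfrp5 and Fzd8 were not tested with the filter of 5 CPM. That setting is among the 19 and counts as not kept, though no place was lost in it. With a library left out in turn, Wnt1 lost its place without icaf 27, icaf 30 or any m2cafpos library, Wnt16 in icaf without icaf 27, icaf 31, m2cafneg 27 or m2cafneg 31, Fzd3 without vcaf 30 or icaf 27, and Sfrp4 in icaf without m2cafneg 31. Wnt16 lost its low place in vcaf without vcaf 27 or m2cafpos 30, Ror1 without vcaf 27, vcaf 31 or icaf 31, Fzd8 without vcaf 27, vcaf 30 or m2cafneg 27, and Sfrp5 without vcaf 30, vcaf 31, m2cafneg 27 or m2cafneg 31.

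To compare roles, levels were divided by exon length and summed. The Wnt ligands together had 8.46, 10.9 and 9.82 CPM per kb in vcaf, 123, 100.4 and 83.4 in icaf, 78.0, 80.2 and 63.1 in m2cafpos, and 64.6, 78.1 and 39.7 in m2cafneg. Every vcaf library thus lay far below the rest, and icaf lay above both m2caf gates, which overlapped. The antagonists together had 55.5, 90.2 and 78.4 CPM per kb in vcaf, 834, 814 and 856 in icaf, 586, 625 and 549.8 in m2cafpos, and 493, 780.0 and 377 in m2cafneg. They showed the same low vcaf level, with icaf again above every other library. The sum covers the antagonists taken by name. It leaves out Frzb, a secreted Wnt antagonist described below that was lower in icaf than in the m2caf gates. Antagonist transcripts exceeded ligand transcripts in every library, by a ratio of 7.6 ± 0.905 in vcaf, 8.38 ± 1.76 in icaf, 8.0 ± 0.628 in m2cafpos and 9.03 ± 1.24 in m2cafneg (SD, n = 3 each). The ratios of the 4 populations overlapped, but they rested on different genes. Dkkl1 and Dkk3 made up 45.8% and 33.3% of the antagonist sum in vcaf and 0.747% and 4.35% in icaf. They made up 0.766% and 40.1% in m2cafpos, and 4.05% and 22.1% in m2cafneg. Like ratios therefore do not mean like levels of the Sfrp genes relative to the ligands. Members were counted as antagonists by name, Dkkl1 and Dkk3 included, and whether each acts against Wnts was not tested.

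The receptors were spread differently. Summed Frizzled levels were 25.6 ± 3.72 CPM per kb in vcaf, 26.7 ± 0.736 in icaf, 51.3 ± 3.02 in m2cafpos and 49.3 ± 4.35 in m2cafneg, and summed co-receptor levels were 14.2 ± 2.08 in vcaf, 14.7 ± 1.67 in icaf, 23.6 ± 2.24 in m2cafpos and 20.5 ± 1.95 in m2cafneg (SD, n = 3 each). Summed R-spondin levels were 0.218 ± 0.178 CPM per kb in vcaf, 2.04 ± 0.198 in icaf, 2.98 ± 0.357 in m2cafpos and 1.39 ± 0.269 in m2cafneg (SD, n = 3 each). These sums are descriptions and were not tested.

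**Figure D2:**
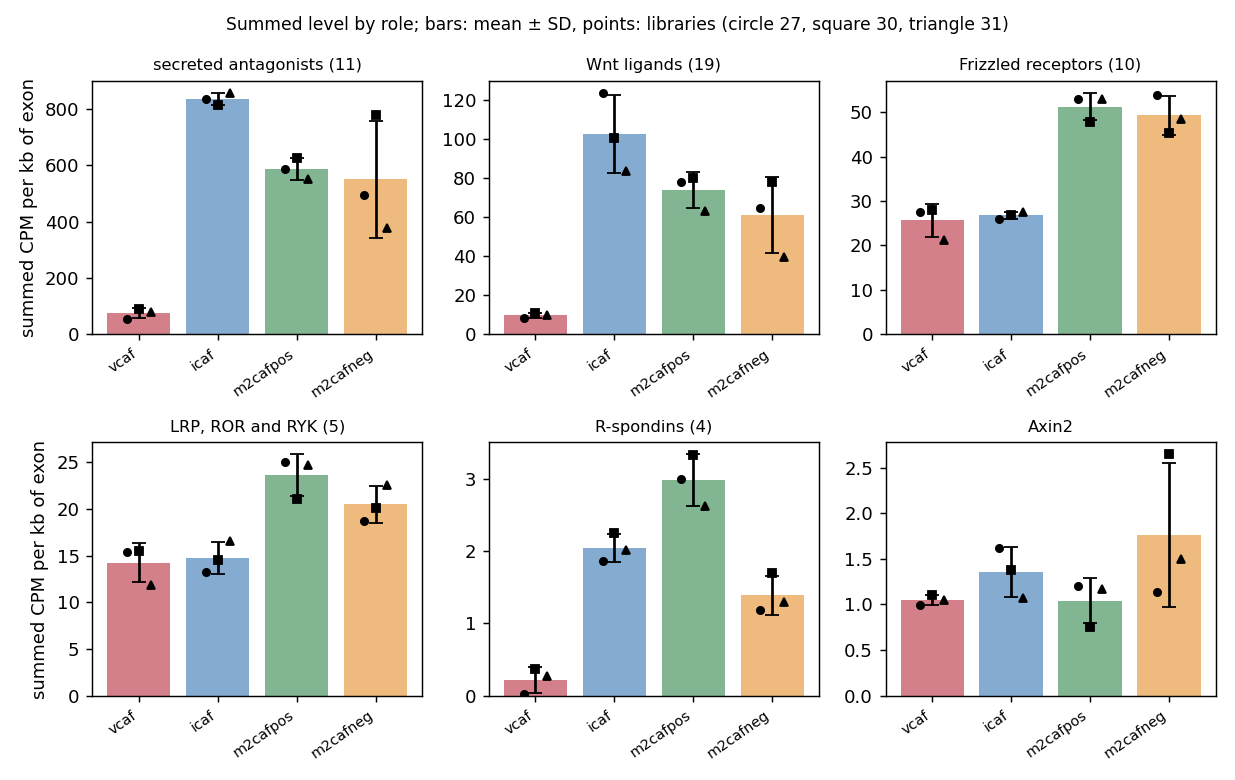
Summed CPM per kb of exon for each role in vcaf, icaf, m2cafpos and m2cafneg; points are libraries, bars the mean and lines the SD (n = 3). Ligands and antagonists are lowest in vcaf (9.74 and 74.7 CPM per kb) and highest in icaf (102 and 835 CPM per kb), while Frizzleds are higher in both m2caf gates than in vcaf or icaf. The antagonists are those taken by name and leave out Frzb.

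In the ligands, Frizzleds and antagonists the leading gene changed with the population, whereas Rspo1 led the R-spondins in all 4 (58.5% in icaf and 86.6% to 99.1% in the others). Of the summed ligand level per kb, Wnt5b made up 31.2% and Wnt5a 26.9% in vcaf, Wnt2 75.2% in icaf, Wnt9a 45.7% and Wnt2 38.3% in m2cafpos, and Wnt2 51.8% and Wnt9a 28.8% in m2cafneg. Of the Frizzled level, Fzd4 made up 62.2% in vcaf, and Fzd1 69.9% in m2cafpos and 70.0% in m2cafneg. In icaf neither led clearly, with 32.6% for Fzd4 (29.4% to 35.1% by library) and 31.3% for Fzd1 (27.5% to 34.8%). Of the antagonist level, Dkkl1 made up 45.8% in vcaf, Sfrp4 63.9% in icaf, Sfrp2 47.2% in m2cafpos and 47.8% in m2cafneg. The leader was not the same in every library, as Wnt5a reached 36.9% in vcaf and Wnt2 47.0% in m2cafpos in their highest libraries. The Wnt2 share in m2cafneg ranged from 29.3% to 68.2% over the 3 mice, and that of Dkkl1 in vcaf from 29.2% to 52.8%. In icaf the Wnt2 share was steadier, at 72.3% to 78.0%.

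Among the ligands, Wnt2 (ENSMUSG00000010797, chr6:17988940-18030585, GRCm38), which activates beta-catenin signalling, had 0.0400, 4.66 and 1.27 CPM in vcaf, 209, 177 and 136 CPM in icaf, 62.2, 85.0 and 43.7 CPM in m2cafpos, and 66.6, 120.2 and 26.3 CPM in m2cafneg. All vcaf libraries lay below and all icaf libraries above every other library, and the m2caf gates overlapped. The log2 fold change in vcaf was -5.19 ± 0.47 (SE, limma adjusted p = 1.7e-06), and it was -4.60 without vcaf 27 and -5.82 without vcaf 30. In icaf against the m2caf gates it was 1.48 ± 0.50 (limma adjusted p = 0.0446; 0.00751 with the mouse as a block). The icaf call was lost with edgeR (adjusted p = 0.145), with a pseudocount of 0.25 CPM (0.131), with the epithelial covariate (0.79, 0.467) and without any of vcaf 31, icaf 27, icaf 30, icaf 31, m2cafpos 27, m2cafpos 31, m2cafneg 27 or m2cafneg 31 (1.20 to 1.65, adjusted p 0.0571 to 0.157).

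Wnt9a (ENSMUSG00000000126, chr11:59306928-59333552), a ligand known from joint formation, had 4.82, 5.36 and 6.29 CPM in vcaf, 64.8, 28.9 and 48.4 CPM in icaf, 117, 112 and 108 CPM in m2cafpos, and 71.2, 50.2 and 53.3 CPM in m2cafneg. The vcaf libraries were lowest and the m2cafpos libraries highest with no overlap, and icaf overlapped m2cafneg. It was lower in vcaf (-3.38 ± 0.19, limma adjusted p = 2.08e-08) and in icaf against the m2caf gates (-0.82 ± 0.20, adjusted p = 0.00933), and higher in m2cafpos than in m2cafneg (0.95 ± 0.23, adjusted p = 0.0124). Wnt3a lies 16175 bases from Wnt9a on chromosome 11, yet had no read in 11 of the 12 libraries.

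Wnt10b (ENSMUSG00000022996, chr15:98770712-98778150), which activates beta-catenin signalling and holds back fat cell formation, had 0.0200, 0.0924 and 0 CPM in vcaf, 7.50, 11 and 3.94 CPM in icaf, 0, 0.241 and 0.0456 CPM in m2cafpos, and 0.174, 0.0450 and 0.0190 CPM in m2cafneg. Every icaf library was above 3 CPM and every other library below 1 CPM. In icaf against the m2caf gates the log2 fold change was 2.88 ± 0.22 (SE), on a scale with 1 CPM added that understates changes of low genes. It is given with no p, because Wnt10b passed the level filter only through icaf. Wnt1 lies 11706 bases from Wnt10b on chromosome 15 and was also highest in icaf, with 4.35, 3.75 and 1.03 CPM, against 0.160, 0.0924 and 0.529 CPM in vcaf, 1.16, 0.463 and 1.05 CPM in m2cafpos, and 0.196, 0 and 0.114 CPM in m2cafneg. The icaf and m2cafpos libraries of Wnt1 overlapped, and in both genes icaf 31 was the lowest icaf library. Outside icaf, Wnt1 reached 1 CPM only in m2cafpos 27 and m2cafpos 31, so without icaf it would not have passed the filter. In icaf against the m2caf gates the log2 fold change of Wnt1 was 1.38 ± 0.27 (SE), given with no p on that ground. Its lower level in vcaf (-0.66 ± 0.26, limma adjusted p = 0.0369) was set against a mean that holds icaf, so the same limit applies. That call was lost without any of vcaf 27, vcaf 30, icaf 27, icaf 30, m2cafpos 27, m2cafpos 31 or m2cafneg 27 (adjusted p 0.0533 to 0.131) and with edgeR (0.0788). The place of Wnt1 in icaf above each other population was held in 9 of 19 settings and not with edgeR. The filter of 5 CPM, where Wnt1 was not tested, counts there as not held.

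Wnt5a and Wnt5b act mainly without beta-catenin, through Ror receptors. Wnt5b (ENSMUSG00000030170, chr6:119432531-119544347) had 7.55, 8.85 and 7.78 CPM in vcaf, 1.63, 1.14 and 2.46 CPM in icaf, 2.20, 0.816 and 1.69 CPM in m2cafpos, and 3.50, 3.96 and 6.84 CPM in m2cafneg. The vcaf libraries lay above all others, and m2cafneg lay above icaf and m2cafpos, which overlapped. Wnt5b was higher in vcaf (1.43 ± 0.22, limma adjusted p = 0.000139) and lower in m2cafpos than in m2cafneg (-1.16 ± 0.27, adjusted p = 0.00989). The epithelial markers ran in the same order, 15 of 15 being higher in vcaf (53.3% of all genes) and 13 of 15 lower in m2cafpos than in m2cafneg (22.6%). None of the 15 differed between vcaf and m2cafneg. The order was not particular to them. Of 7 Schwann and nerve markers tested, 6 were higher and 1 lower in vcaf, and 5 were lower in m2cafpos than in m2cafneg. Of 9 macrophage markers tested, 9 were higher in vcaf and 8 lower in m2cafpos. With the level of the epithelial markers as a covariate the Wnt5b values were 0.71 (adjusted p = 0.096) in vcaf and -0.35 (0.639) in m2cafpos against m2cafneg. The part of any of these markers in the result was not tested beyond that.

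Wnt7b, a ligand of epithelia, was also high in the populations richest in epithelial, nerve and macrophage markers, with 2.60 ± 0.182 CPM in vcaf, 0.502 ± 0.259 CPM in icaf, 0.732 ± 0.412 CPM in m2cafpos and 2.61 ± 0.901 CPM in m2cafneg (SD, n = 3 each). Its vcaf and m2cafneg libraries overlapped, and both lay above the other 2 populations. It was higher in vcaf (0.79 ± 0.18, limma adjusted p = 0.00215; 0.44 and 0.298 with the epithelial covariate). In icaf it was lower (-0.72 ± 0.19, adjusted p = 0.0148; 0.0638 without icaf 27 and 0.0821 without icaf 30), and in m2cafpos it was lower than in m2cafneg (-1.06 ± 0.22, adjusted p = 0.00657; -0.66 and 0.357 with the covariate).

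Wnt5a (ENSMUSG00000021994, chr14:28504750-28527448) had 24.4, 17.2 and 19.9 CPM in vcaf, 19.5, 26.3 and 16.9 CPM in icaf, 49.8, 25.2 and 40.8 CPM in m2cafpos, and 44.5, 22.1 and 34.6 CPM in m2cafneg. In both m2caf gates the mouse 30 library was lowest, and vcaf was separate from m2cafpos only. It was lower in icaf than in the m2caf gates (-0.73 ± 0.24, limma adjusted p = 0.0423), a call lost without any of vcaf 31, icaf 27, icaf 31, m2cafpos 27, m2cafpos 31, m2cafneg 27 or m2cafneg 31 (0.0533 to 0.145). The vcaf value was -0.51 ± 0.23 (adjusted p = 0.0657), which passed with the mouse as a block (0.0309) and with median-of-ratios scaling (-0.90, 0.0054).

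Wnt11 (ENSMUSG00000015957, chr7:98835112-98855195), a ligand of the polarity branch whose promoter is printed above, had 0.801, 1.28 and 1.04 CPM in vcaf, 9.95, 15.1 and 8.38 CPM in icaf, 27.4, 13.8 and 16.2 CPM in m2cafpos, and 13.4, 5.89 and 13.1 CPM in m2cafneg. All vcaf libraries lay below the rest, icaf overlapped both m2caf gates, and m2cafpos lay just above m2cafneg. Its vcaf level was lower (-2.75 ± 0.26, limma adjusted p = 2.65e-06). In m2cafpos against m2cafneg the value was 0.79 ± 0.32 (adjusted p = 0.0868), and 1.05 (0.0383) with median-of-ratios scaling.

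The other 2 tested ligands were low. Wnt16, which is known from bone, averaged 0.177 CPM in vcaf, 3.37 CPM in icaf, 1.05 CPM in m2cafpos and 1.57 CPM in m2cafneg, with icaf above and vcaf below all other libraries. Its higher level in icaf than in the m2caf gates (0.96 ± 0.21, limma adjusted p = 0.00456) was lost with edgeR (1.38, 0.102). Wnt2b, a close relative of Wnt2, averaged 0.389 CPM in vcaf, 1.31 CPM in icaf, 2.30 CPM in m2cafpos and 0.810 CPM in m2cafneg, and was higher in m2cafpos than in m2cafneg (0.86 ± 0.19, adjusted p = 0.00737), a call lost with edgeR (0.0564).

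The 9 ligands below the filter were Wnt3, Wnt3a, Wnt4, Wnt6, Wnt7a, Wnt8a, Wnt8b, Wnt9b and Wnt10a. The highest of their library values was 3.68 CPM, for Wnt10a in m2cafneg 27. Wnt10a had 3.68, 3.60 and 0.874 CPM in m2cafneg, and Wnt4 reached 2.68 CPM in m2cafneg 30. Wnt9b reached 1.68 CPM and Wnt6 1.07 CPM in single libraries. Wnt3, Wnt7a, Wnt8a and Wnt8b peaked at 0.157, 0.241, 0.108 and 0.185 CPM, and Wnt3a at 0.0185 CPM.

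**Figure D3:**
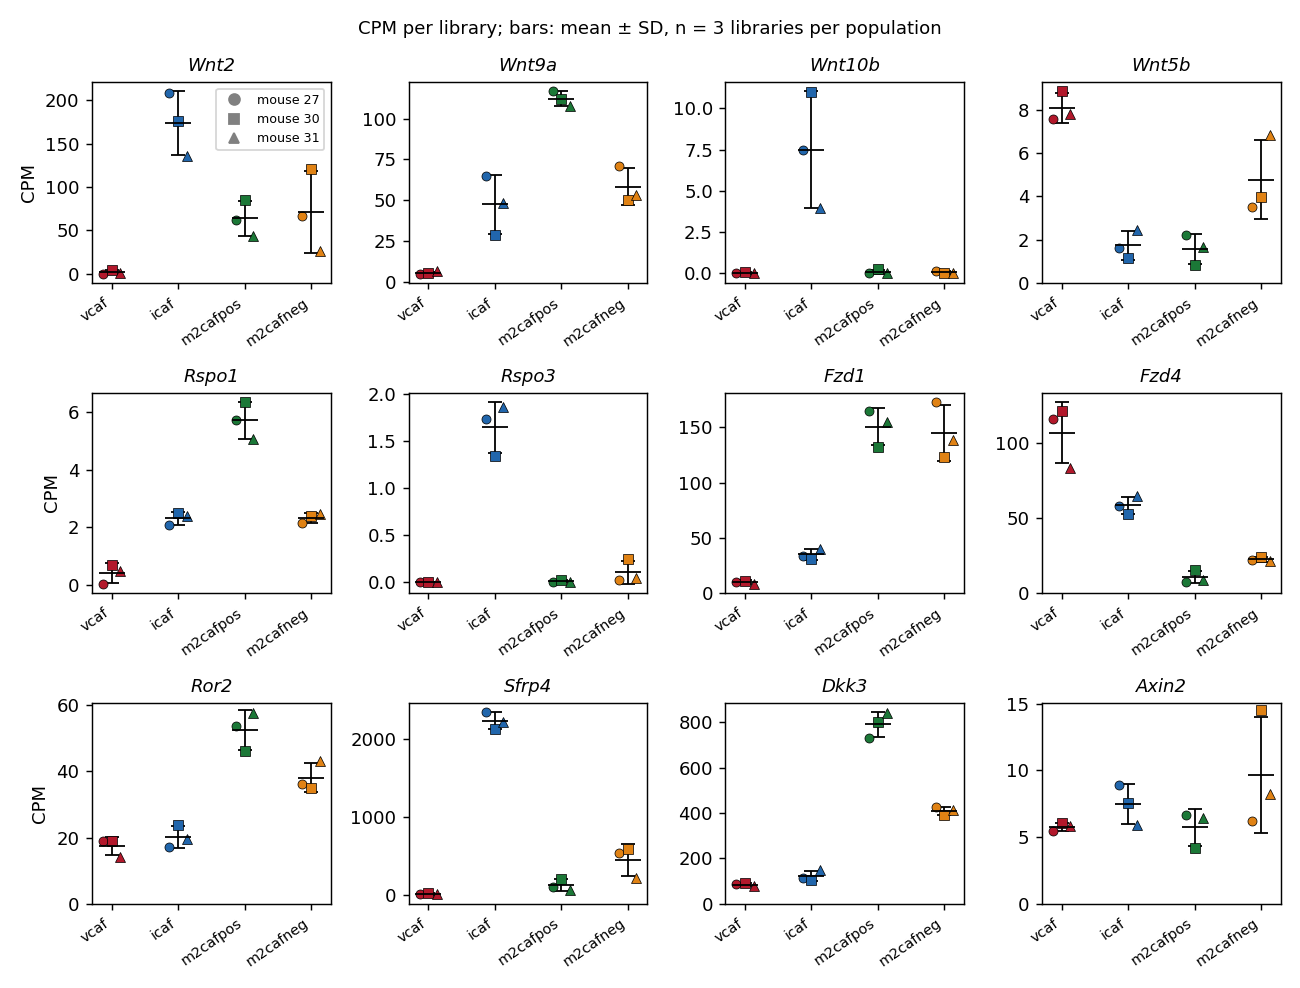
CPM per library of 12 members in vcaf, icaf, m2cafpos and m2cafneg; circles are mouse 27, squares mouse 30 and triangles mouse 31, and bars give the mean with its SD (n = 3). Wnt10b and Rspo3 are above 1 CPM in icaf libraries only, Fzd4 is ordered vcaf, icaf, m2cafneg and m2cafpos with no overlap, and Axin2 overlaps between most populations.

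R-spondins amplify Wnt signals through Lgr receptors. Rspo1 (ENSMUSG00000028871, chr4:124986430-125009099) had 0.0200, 0.702 and 0.470 CPM in vcaf, 2.07, 2.5 and 2.38 CPM in icaf, 5.74, 6.36 and 5.08 CPM in m2cafpos, and 2.13, 2.41 and 2.45 CPM in m2cafneg. The vcaf libraries were lowest and the m2cafpos libraries highest, and icaf overlapped m2cafneg. The level in vcaf was lower (-1.62 ± 0.16, limma adjusted p = 3.53e-06) and higher in m2cafpos than in m2cafneg (1.01 ± 0.19, adjusted p = 0.00462; 0.0965 with edgeR). In icaf against the m2caf gates it was lower (-0.51 ± 0.17, adjusted p = 0.0402), a call lost with edgeR (0.371) and without any of icaf 27, icaf 30, icaf 31, m2cafpos 27, m2cafpos 30, m2cafpos 31, m2cafneg 30 or m2cafneg 31 (0.0514 to 0.151).

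Rspo3 (ENSMUSG00000019880, chr10:29452416-29535867), which is known from vessel development, had no read in the 3 vcaf libraries, 1.73, 1.34 and 1.86 CPM in icaf, 0, 0.0185 and 0 CPM in m2cafpos, and 0.0218, 0.247 and 0.0380 CPM in m2cafneg. All icaf libraries lay above 1 CPM and all others below it. The icaf mean was at least 27.3-fold higher than the 0.0601 CPM that 3 reads per vcaf library allow. Against the m2caf gates the log2 fold change in icaf was 1.32 ± 0.12 (SE), again with no p, since the filter was passed only through icaf. Rspo2 and Rspo4 were below the filter, and Rspo2 was highest in icaf too, with 0.912, 2.30 and 0.594 CPM there.

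Of the 8 Frizzleds tested, 5 were higher and 2 lower in vcaf, where 53.3% and 14.2% of all genes were, and with median-of-ratios scaling Fzd4, Fzd5 and Fzd8 were higher and Fzd1, Fzd2 and Fzd3 lower. Fzd4 (ENSMUSG00000049791, chr7:89404355-89413134), the receptor of Wnts and of norrin in retinal vessels, had 116, 121 and 83.6 CPM in vcaf, 58.0, 52.9 and 64.7 CPM in icaf, 7.75, 15.6 and 9.13 CPM in m2cafpos, and 22.1, 24.5 and 21.3 CPM in m2cafneg. No 2 populations overlapped, and the order was vcaf, icaf, m2cafneg and m2cafpos. The log2 fold change was 2.08 ± 0.17 in vcaf (limma adjusted p = 8.02e-07), 1.86 ± 0.18 in icaf against the m2caf gates (1.52e-05) and -1.05 ± 0.21 in m2cafpos against m2cafneg (0.00567). The nearest pair, vcaf against icaf, differed by 0.85 (adjusted p = 0.00444), and the place of vcaf as highest was lost with median-of-ratios scaling and with edgeR. With the epithelial covariate the vcaf value was 2.58 (1.7e-05). The summed endothelial markers had the same order of means, though their libraries overlapped. Of the 10, 7 were higher and 1 lower in vcaf, and 7 were lower in m2cafpos than in m2cafneg. The single markers did not share the place of icaf in that order. In icaf 1 was higher and 6 lower than in m2cafneg, and 1 was higher and 3 lower than in the m2caf gates averaged. In m2cafpos none of the 10 markers was at 0. Their part in the result was not tested.

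Fzd1 (ENSMUSG00000044674, chr5:4753839-4758035), a receptor for several Wnts, ran the other way, with 10.7, 11.5 and 8.72 CPM in vcaf, 34.2, 31.0 and 40.1 CPM in icaf, 165, 132 and 154 CPM in m2cafpos, and 173, 123 and 138 CPM in m2cafneg. Every vcaf library was below every icaf library, these were below both m2caf gates, and the m2caf gates overlapped. It was lower in vcaf (-3.03 ± 0.12, limma adjusted p = 1.43e-09) and in icaf against the m2caf gates (-2.04 ± 0.13, adjusted p = 7.99e-07). Fzd2 (ENSMUSG00000050288, chr11:102604396-102608058), a receptor of Wnt5a, had 3.48, 4.10 and 3.53 CPM in vcaf, 21.6, 24.1 and 18.3 CPM in icaf, 31.8, 39.1 and 39.9 CPM in m2cafpos, and 19.2, 26.4 and 20.7 CPM in m2cafneg. The vcaf libraries were lowest, the m2cafpos libraries highest, and icaf overlapped m2cafneg. Fzd2 was lower in vcaf (-2.51 ± 0.13, adjusted p = 9.28e-09) and higher in m2cafpos than in m2cafneg (0.72 ± 0.16, adjusted p = 0.00786). Its lower value in icaf (-0.40 ± 0.14, adjusted p = 0.0454) was lost with median-of-ratios scaling (0.0531), with edgeR (0.0565) and without any of vcaf 27, icaf 27, icaf 30, icaf 31, m2cafpos 30, m2cafpos 31, m2cafneg 30 or m2cafneg 31 (0.0528 to 0.179).

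Fzd3 (ENSMUSG00000007989, chr14:65192449-65262463), a receptor of the polarity branch, had 5.19, 6.84 and 6.08 CPM in vcaf, 2.66, 3.01 and 3.50 CPM in icaf, 12.7, 7.16 and 12 CPM in m2cafpos, and 13.5, 6.48 and 12.1 CPM in m2cafneg. All icaf libraries were below the rest, and in icaf against the m2caf gates the log2 fold change was -1.48 ± 0.23 (limma adjusted p = 0.000428). The vcaf value was -0.20 ± 0.22 (0.431), and -0.55 (0.0479) with median-of-ratios scaling.

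Fzd6 and Fzd7 were higher in vcaf in CPM, but neither call held with median-of-ratios scaling. Fzd6 (ENSMUSG00000022297, chr15:39006034-39038188), a polarity receptor, had 8.53, 7.52 and 11.2 CPM in vcaf, 1.96, 2.52 and 3.62 CPM in icaf, 3.49, 1.5 and 4.53 CPM in m2cafpos, and 4.11, 4.93 and 13.2 CPM in m2cafneg. Its vcaf libraries lay above icaf and m2cafpos but overlapped m2cafneg, of which m2cafneg 31 was the highest library of all. The vcaf value of 1.06 ± 0.31 (limma adjusted p = 0.0092) was not past the threshold with median-of-ratios scaling (0.71, 0.0708), with edgeR (0.78, 0.0944) or without vcaf 31 (0.92, 0.0508), and turned to -0.24 (0.599) with the epithelial covariate. In m2cafpos against m2cafneg it was -0.93 ± 0.38 (0.088; 0.0152 with the mouse as a block, and 0.52 on the log2 scale with the epithelial covariate). Fzd7 (ENSMUSG00000041075, chr1:59482424-59486955), which mediates beta-catenin signalling, had 13.1, 13.1 and 9.62 CPM in vcaf, 6.93, 8.35 and 7.48 CPM in icaf, 6.68, 8.19 and 6.38 CPM in m2cafpos, and 7.23, 13.9 and 9.86 CPM in m2cafneg, with vcaf overlapping m2cafneg. Its vcaf value of 0.49 ± 0.17 (adjusted p = 0.0241) was 0.11 (0.635) with median-of-ratios scaling and was lost without vcaf 27 (0.0991) or vcaf 30 (0.0967).

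Fzd5 and Fzd8, receptors that bind Wnts of the beta-catenin branch, were low, and all vcaf libraries lay above all others. Fzd5 averaged 2.76 CPM in vcaf, 0.516 CPM in icaf, 0.801 CPM in m2cafpos and 1.29 CPM in m2cafneg (vcaf 0.99 ± 0.21, limma adjusted p = 0.0014; 0.89 and 0.0958 with the epithelial covariate). Fzd8 averaged 3.76 CPM in vcaf, 1.41 CPM in icaf, 1.65 CPM in m2cafpos and 1.66 CPM in m2cafneg (vcaf 0.87 ± 0.20, adjusted p = 0.00261). Fzd10 lay just outside the filter, with 2.75, 5.98 and 0.950 CPM in icaf, and Fzd9 reached at most 0.741 CPM.

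Of the co-receptors, Ror2 (ENSMUSG00000021464, chr13:53109312-53286124), a receptor tyrosine kinase for Wnt5a, had 19.1, 19 and 14.2 CPM in vcaf, 17.2, 23.9 and 19.6 CPM in icaf, 53.8, 46.1 and 57.8 CPM in m2cafpos, and 36.1, 34.9 and 43.1 CPM in m2cafneg. The vcaf and icaf libraries overlapped at the low end, m2cafneg lay above them and m2cafpos above all. Ror2 was lower in vcaf (-0.95 ± 0.13, limma adjusted p = 5.38e-05) and in icaf against the m2caf gates (-1.11 ± 0.14, adjusted p = 7.26e-05). The difference of m2cafpos from m2cafneg (0.46 ± 0.16, adjusted p = 0.0486) was lost in 9 of 12 fits that left out a library, without vcaf 27, vcaf 30, icaf 31 or any m2caf library (0.0518 to 0.153).

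Ror1 (ENSMUSG00000035305, chr4:100095791-100444765), the paralog of Ror2, had 4.50, 4.77 and 3.72 CPM in vcaf, 5.81, 5.82 and 10.6 CPM in icaf, 12.8, 9.40 and 13.8 CPM in m2cafpos, and 11.6, 12.8 and 13.5 CPM in m2cafneg. Its vcaf libraries lay below all others, and it was lower in vcaf (-1.08 ± 0.18, limma adjusted p = 0.000249). Its lower value in icaf (-0.70 ± 0.19, adjusted p = 0.0168) was lost without icaf 27 (0.0979) or icaf 30 (0.0973). Lrp5 (ENSMUSG00000024913, chr19:3584828-3686564), the co-receptor of the beta-catenin branch, had 13.4, 15.2 and 14.3 CPM in vcaf, 4.46, 7.47 and 6.83 CPM in icaf, 10.3, 8.08 and 9.18 CPM in m2cafpos, and 9.38, 9.47 and 12.8 CPM in m2cafneg. Here vcaf was above and icaf below all other libraries. The vcaf value of 0.70 ± 0.15 (adjusted p = 0.00177) was 0.31 (0.106) with median-of-ratios scaling and 0.35 (0.306) with the epithelial covariate, and the icaf value of -0.60 ± 0.16 (adjusted p = 0.0181) was -0.40 (0.116) without icaf 27. Lrp6, its paralog, averaged 37.7 CPM in vcaf, 31.3 CPM in icaf, 28.1 CPM in m2cafpos and 37.7 CPM in m2cafneg. Ryk, a Wnt receptor with an inactive kinase domain, averaged 23.4 CPM in vcaf, 26.0 CPM in icaf, 27.7 CPM in m2cafpos and 24.9 CPM in m2cafneg. The omnibus adjusted p was 0.283 for Lrp6 and 0.505 for Ryk, though Ryk was lower in vcaf with median-of-ratios scaling (-0.57, 0.00208).

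The secreted antagonists held the highest levels of the family. Sfrp4 (ENSMUSG00000021319, chr13:19623104-19632994), a Wnt-binding Frizzled-like protein, had 1.28, 19.3 and 8.70 CPM in vcaf, 2345, 2129.7 and 2216 CPM in icaf, 94.7, 203 and 59.4 CPM in m2cafpos, and 535, 582 and 207 CPM in m2cafneg. No 2 populations overlapped, in the order icaf, m2cafneg, m2cafpos and vcaf. The log2 fold change was -5.89 ± 0.54 in vcaf (limma adjusted p = 2.03e-06; -5.02 without vcaf 27 and -6.60 without vcaf 30) and 3.44 ± 0.58 in icaf against the m2caf gates (adjusted p = 0.000821). In icaf it exceeded m2cafpos by 4.40 (0.000417) and m2cafneg by 2.47 (0.0147), and its place as highest in icaf was lost without m2cafneg 31, with no filter and with the epithelial covariate. With that covariate its place as lowest in vcaf was lost too. The value of m2cafpos against m2cafneg was -1.93 ± 0.67 (0.0503), and passed with the mouse as a block (0.0181) and with a filter of 5 CPM (0.0478).

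Dkk3 (ENSMUSG00000030772, chr7:112116017-112159057), a divergent Dickkopf protein, had 84.7, 88.9 and 77.4 CPM in vcaf, 112, 105 and 149 CPM in icaf, 729, 802 and 841 CPM in m2cafpos, and 424, 390.2 and 412 CPM in m2cafneg. The 4 populations were separate, with m2cafpos highest. It was lower in vcaf (-2.01 ± 0.10, limma adjusted p = 9.43e-09), lower in icaf than in the m2caf gates (-2.23 ± 0.11, adjusted p = 2e-07) and higher in m2cafpos than in m2cafneg (0.95 ± 0.13, adjusted p = 0.00112). Its place as highest in m2cafpos held in all 19 settings tried, the epithelial covariate included (1.10, 0.0371 against m2cafneg).

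Sfrp1 and Sfrp2, which bind Wnts, were low in vcaf and high in the 3 PDGFRa-expressing populations. Sfrp2 (ENSMUSG00000027996, chr3:83766321-83774316) had 17.8, 17.7 and 13 CPM in vcaf, 394, 459 and 457 CPM in icaf, 646, 607 and 536 CPM in m2cafpos, and 402, 981 and 316 CPM in m2cafneg. The vcaf libraries lay below all others, icaf lay below m2cafpos, and m2cafneg 30 was the highest library. Sfrp1 (ENSMUSG00000031548, chr8:23411502-23449632) had 9.69, 12.3 and 9.86 CPM in vcaf, 169, 218 and 213 CPM in icaf, 111, 179 and 67.5 CPM in m2cafpos, and 86.1, 213 and 60.2 CPM in m2cafneg. Only vcaf stood apart, and mouse 30 was highest in each of the 4 populations. In vcaf the log2 fold change was -4.90 ± 0.25 for Sfrp2 (limma adjusted p = 9.68e-09) and -3.52 ± 0.33 for Sfrp1 (2.17e-06). In icaf against the m2caf gates Sfrp1 had 0.89 ± 0.35 (0.0791), which passed with the mouse as a block (0.0115).

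Dkk2 (ENSMUSG00000028031, chr3:132085292-132180304), an Lrp5 and Lrp6 ligand whose promoter is printed above, had 0.741, 2.09 and 2.96 CPM in vcaf, 56.3, 18.7 and 31.8 CPM in icaf, 63.2, 39.1 and 45.9 CPM in m2cafpos, and 45.3, 12.9 and 39.8 CPM in m2cafneg. Every vcaf library was below the rest, the other 3 populations overlapped, and mouse 30 was lowest in each of them. In vcaf the log2 fold change was -3.72 ± 0.39 (limma adjusted p = 6.08e-06). Dkkl1 (ENSMUSG00000030792, chr7:45207519-45212147), a Dickkopf-like protein best known from the testis, had 25.5, 71.0 and 65.2 CPM in vcaf, 3.74, 7.14 and 18.6 CPM in icaf, 4.03, 4.86 and 12.4 CPM in m2cafpos, and 31.0, 24.1 and 50.2 CPM in m2cafneg. The vcaf and m2cafneg libraries overlapped, and both lay above icaf and m2cafpos. It was higher in vcaf (1.93 ± 0.44, adjusted p = 0.0021) and lower in m2cafpos than in m2cafneg (-2.24 ± 0.54, adjusted p = 0.0115; -1.97 and 0.0501 without m2cafpos 27). This is the order of the epithelial markers, and of the Schwann and nerve markers too. With the epithelial level as a covariate the Dkkl1 values were 0.39 (0.629) and -0.52 (0.72). In icaf the value was -0.80 ± 0.46 (0.224; 0.0295 with the mouse as a block, and 0.19 on the log2 scale with the covariate).

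Sfrp5 averaged 3.13 CPM in vcaf, 0.137 CPM in icaf, 0.620 CPM in m2cafpos and 0.987 CPM in m2cafneg, where m2cafneg 30 alone had 2.54 CPM, and was higher in vcaf (1.46 ± 0.32, limma adjusted p = 0.00155). Wif1 averaged 2.43 CPM in vcaf, 0.335 CPM in icaf, 0.549 CPM in m2cafpos and 1.35 CPM in m2cafneg, with overlap between all populations, and its vcaf value was 0.91 ± 0.41 (0.0681; 0.00661 with the mouse as a block). Dkk1, Dkk4 and Notum, a Wnt deacylase, were below the filter, at no more than 0.185, 0.148 and 0.649 CPM in a library.

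Axin2 (ENSMUSG00000000142, chr11:108920349-108950783), a feedback target often read as a gauge of beta-catenin signalling, had 5.47, 6.08 and 5.80 CPM in vcaf, 8.89, 7.59 and 5.92 CPM in icaf, 6.65, 4.15 and 6.42 CPM in m2cafpos, and 6.23, 14.6 and 8.26 CPM in m2cafneg. The populations overlapped except vcaf and m2cafneg, and m2cafneg 30 was the highest library. The omnibus adjusted p was 0.144 by limma. The log2 fold change in vcaf was -0.29 ± 0.22 (0.254), and -0.64 (0.0292) with median-of-ratios scaling and -0.78 (0.03) with edgeR. It was 0.03 ± 0.23 (0.941) in icaf against the m2caf gates and -0.61 ± 0.26 (0.106) in m2cafpos against m2cafneg.

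**Figure D4:**
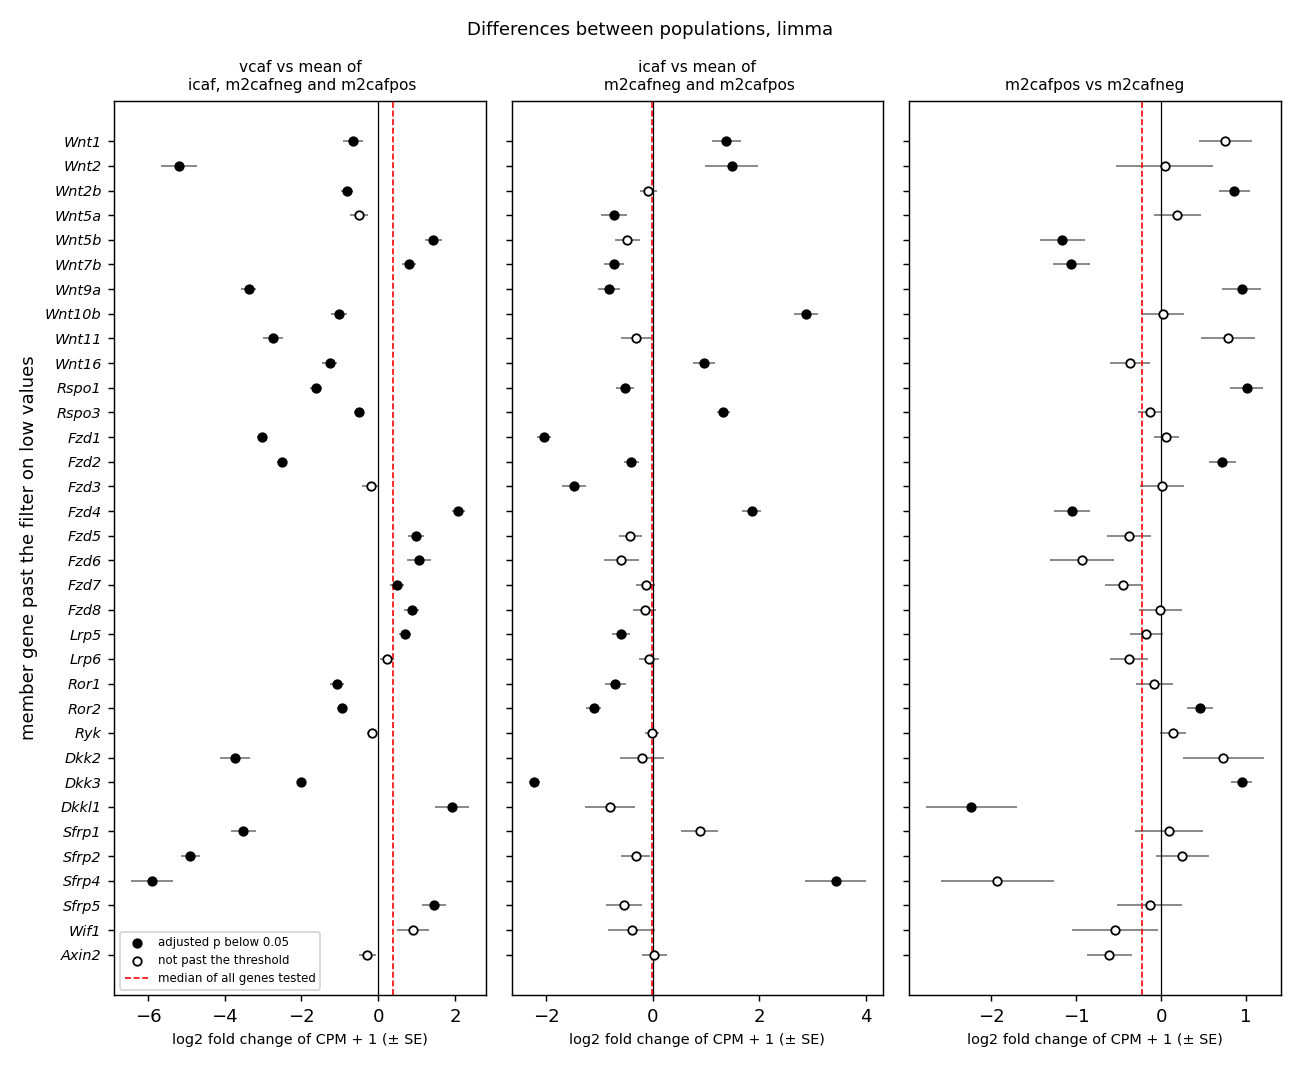
Log2 fold changes on the log2(CPM + 1) scale (points, with SE as lines) of the 34 tested members in the 3 comparisons; filled points have a limma adjusted p under 0.05, and the red dashed line is the median of all 15456 genes (0.38, -0.01 and -0.23). In vcaf, Sfrp4, Wnt2 and Sfrp2 lie farthest below the line, and in icaf Sfrp4 and Wnt10b lie farthest above it. Wnt10b and Rspo3 are filled in vcaf and icaf, but passed the filter only through icaf. Wnt1 is filled there too, and would not have passed the filter without icaf.

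Other genes of the pathway were described with a list of 56 genes, of which 51 passed the filter. In vcaf 29 of these were higher and 10 lower, with 53.3% and 14.2% of all genes; the list median was 0.57 against 0.38 for all genes, and 15 higher and 13 lower with median-of-ratios scaling. Those with the smallest p in vcaf were Daam2, a formin of the polarity branch, Tspan12, the tetraspanin partner of Fzd4, Trabd2b, a Wnt protease, Daam1, the paralog of Daam2, Gpc4, a heparan sulphate glypican, and Reck, a co-receptor for Wnt7 ligands. Daam2 averaged 93.4 CPM in vcaf, 4.72 CPM in icaf, 8.25 CPM in m2cafpos and 7.48 CPM in m2cafneg (3.62 ± 0.16, limma adjusted p = 3.03e-09). Tspan12 averaged 319 CPM in vcaf, 28.5 CPM in icaf, 20.8 CPM in m2cafpos and 56.3 CPM in m2cafneg (3.29 ± 0.19, adjusted p = 2.87e-08). In vcaf, Tspan12 and Fzd4 were thus both above every other population in mean level. Trabd2b (2.68 ± 0.25), Daam1 (1.59 ± 0.16) and Gpc4 (1.12 ± 0.11) were also higher, whereas Reck was lower, with 10.3 CPM in vcaf, 52.1 CPM in icaf, 35.2 CPM in m2cafpos and 44.2 CPM in m2cafneg (-1.96 ± 0.18, adjusted p = 2.04e-06).

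In icaf against the m2caf gates, 6 of the 51 were higher and 17 lower, with 12.1% and 14.2% of all genes, and -0.22 was the median against -0.01 for all genes. Those with the smallest p were Ptk7, Nkd2, Ccn4, Kremen1, Porcn and Frzb, all lower. Ptk7, a pseudokinase co-receptor, averaged 48.1 CPM in icaf, 407 CPM in m2cafpos and 238 CPM in m2cafneg (-2.68 ± 0.24, limma adjusted p = 6.5e-06). Nkd2, a feedback inhibitor of Dishevelled, averaged 60.1 CPM in icaf, 563 CPM in m2cafpos and 471 CPM in m2cafneg (-3.10 ± 0.31, adjusted p = 1.61e-05). Ccn4, a matricellular target of Wnt1, averaged 40.1 CPM in icaf, 347 CPM in m2cafpos and 128 CPM in m2cafneg (-2.42 ± 0.27, adjusted p = 3.94e-05). The log2 fold change was -1.31 ± 0.15 for Kremen1, a Dkk receptor, -1.08 ± 0.13 for Porcn, the acyltransferase of Wnts, and -2.53 ± 0.32 for Frzb, a secreted Wnt antagonist.

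In m2cafpos against m2cafneg, 4 of the 51 were higher and 18 lower, with 3.51% and 22.6% of all genes; their median was -0.44 against -0.23 for all genes, and 8 were higher and 9 lower with median-of-ratios scaling. With the mouse as a block 7 were higher. Those with the smallest p were Lgr4 (-1.06 ± 0.16, limma adjusted p = 0.00175), Bambi (-1.40 ± 0.24), Lgr6 (-1.88 ± 0.33), Tspan12 (-1.32 ± 0.23), Tcf7l2 (-0.77 ± 0.14) and Csnk1a1 (-0.50 ± 0.10), all lower in m2cafpos. Lgr4 and Lgr6 are receptors of R-spondins, Tcf7l2 is a partner of beta-catenin, and Csnk1a1 is a kinase of the destruction complex whose value was -0.22 (0.124) with median-of-ratios scaling. Bambi was -0.59 (0.295) and Lgr6 -0.64 (0.327) with the epithelial covariate. Tspan12 was -0.99 (0.197), Lgr4 -1.14 (0.0674) and Tcf7l2 -0.58 (0.202) in that fit. Higher in m2cafpos were Ccn4 (1.49 ± 0.32, adjusted p = 0.0069), Lgr5, Kremen1 (0.55, 0.0358) and Porcn (0.43, 0.0476). The call of Kremen1 was lost without m2cafpos 27, m2cafpos 31 or any m2cafneg library (0.0519 to 0.111), and that of Porcn without vcaf 27, vcaf 30, icaf 30 or any m2caf library (0.0512 to 0.148). Lgr5, another R-spondin receptor, named here after its values were seen, had 37.4, 15.8 and 30.8 CPM in m2cafpos and 7.44, 1.93 and 10.7 CPM in m2cafneg, with no overlap (2.05 ± 0.48, adjusted p = 0.0108). The 3 Lgr receptors thus did not share a direction between the NCAM gates.

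**Figure D5:**
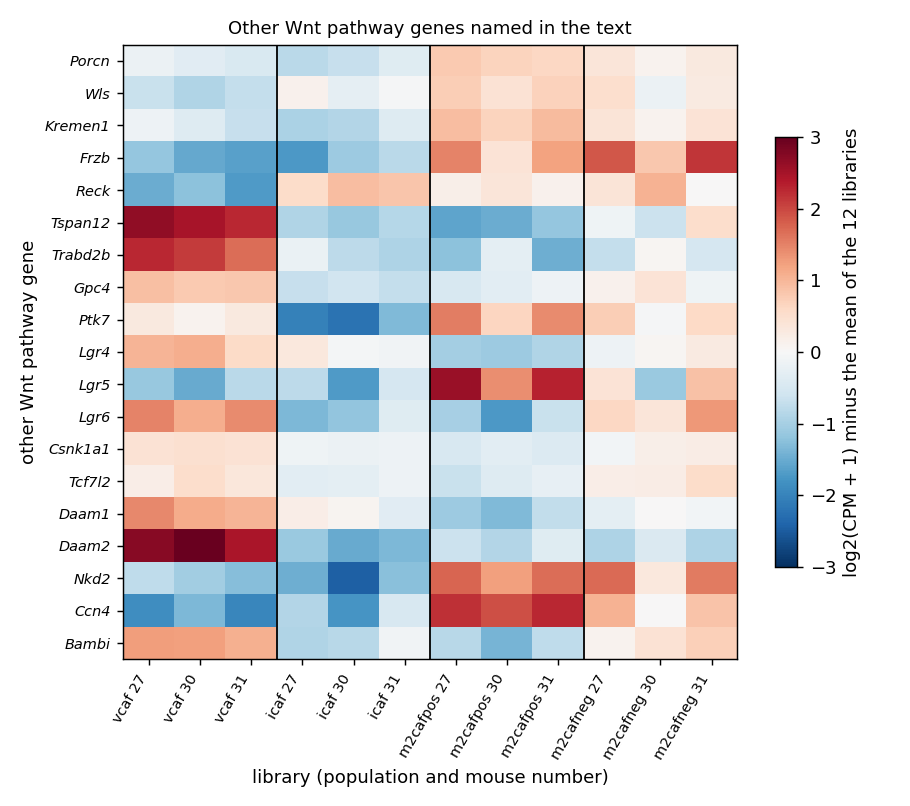
Heatmap of 19 other pathway genes in the 12 libraries, coloured by log2(CPM + 1) minus the mean of the 12 libraries. Daam2, Tspan12 and Trabd2b are highest in the vcaf libraries, Nkd2 and Ccn4 are highest in the m2caf libraries, and Lgr5 is highest in m2cafpos.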

How the data were processed

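RNA was extracted with a column kit from 12 sorted samples (4 populations of 3 mice) and sequenced on an Illumina NovaSeq instrument, per the labels' protocols. Per the submitters' processing notes, DRAGEN and bcl2fastq were used with the mm10 genome. Kit, counting tool and strand handling are not given in the sources consulted here, so reads of overlapping genes and close paralogs may be misplaced. The values are CPM deposited by the authors. Each column sums to 1000000 over 55487 genes, after 287 repeated lines were removed, so no other scaling was applied. Values were whole reads within 0.001 reads, which gave 43898839 to 55363203 reads per library.

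The filter of 1 CPM in 3 or more libraries left 15456 genes. Their log2(CPM + 1) values were tested by limma 3.58.1 (R 4.3.3), with 4 groups of 3 libraries, two-sided, with Benjamini-Hochberg adjustment and a threshold of 0.05. vcaf was set against the other 3 populations averaged, icaf against the m2caf gates averaged, and m2cafpos against m2cafneg, and all 6 pairs were tested as well. P values of the reported fit measure the spread of libraries within a population, pooled over the 4 populations and moderated across genes. They treat the 12 libraries as independent and do not measure the spread of differences within a mouse. Libraries of the same mouse deviated together (median r 0.293 over 18 pairs across genes, lowest 0.0843, against -0.149 for 36 pairs of different mice). The labels give the mouse, so values with the mouse as a block are printed where they change the call of a member, above or in the closing section. For the other pathway genes, 12 of 153 results became called with the block, and their values are not printed. Alternatives were a pseudocount of 0.25 CPM, no filter, a filter of 5 CPM, median-of-ratios scaling, edgeR 4.0.16 on the recovered reads, the mouse block, the epithelial marker level as a covariate, and leaving out each library. The scripts were tested on simulated data.

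Within each role, up to 6 members with the highest level among those past the omnibus test were given in full, and for each comparison the 6 pathway genes with the smallest p. The members and lists were chosen with earlier results of these data known. Positions are from GENCODE M21 (GRCm38), which held 50 of the 50 members.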

Additional observations from a re-analysis of the deposited data

How the results depend on the processing

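Of the 102 member results (34 members in 3 comparisons), 96 kept their call with the mouse as a block and 6 became called, 98 kept it with a pseudocount of 0.25 CPM, 95 without a filter, 93 with median-of-ratios scaling, 88 with edgeR and 75 with the epithelial covariate. The block changed no other of these calls. In the further pairs it newly called, beside those given with the ordered populations above, Wnt5a (0.0383) and Fzd3 (0.0351) in vcaf against m2cafneg, Fzd6 in icaf against m2cafneg (0.00632), and Wif1 in vcaf against icaf (0.00556) and m2cafpos (0.00903). Without a filter, 7 members were lower in icaf (11 in the reported fit), and 2 pathway genes were higher and 11 lower in m2cafpos than in m2cafneg (4 and 18). With a filter of 5 CPM, which tests fewer members, 6 members were higher in vcaf (10) and 3 in icaf (7). With median-of-ratios scaling, 15 pathway genes were higher in vcaf (29), and 8 were higher and 9 lower in m2cafpos than in m2cafneg; with edgeR these were 16, 7 and 7. With the mouse as a block, 7 pathway genes were higher in m2cafpos. With the epithelial covariate, 3 members and 14 pathway genes were higher in vcaf, 4 members and 10 pathway genes lower in icaf (17 in the reported fit), 1 member was higher and 1 lower in m2cafpos than in m2cafneg (6 and 4), and 2 pathway genes were higher and 1 lower there. The cause of these differences was not tested.

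Among results with a call in the reported or the alternative fit, values that changed sign were those of Fzd6 in vcaf (-0.24 with the epithelial covariate, 1.06 reported), Dvl3 in vcaf (-0.31 with median-of-ratios scaling and with edgeR, 0.10 reported), and Celsr2 with the epithelial covariate (-0.0851 in vcaf, 2.03 reported, and 0.35 in m2cafpos against m2cafneg, -2.02 reported).

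When each library was left out in turn, 28 to 31 members passed the omnibus test. Members numbered 9 to 11 higher and 17 to 19 lower in vcaf, 6 to 8 higher and 5 to 11 lower in icaf (5 without icaf 27, 7 without icaf 30), and 5 to 6 higher and 3 to 7 lower in m2cafpos against m2cafneg (7 without m2cafneg 27). Pathway genes numbered 26 to 31 higher and 9 to 10 lower in vcaf, 4 to 7 higher and 12 to 19 lower in icaf, and 2 to 6 higher and 11 to 20 lower in m2cafpos (2 without m2cafpos 27, m2cafpos 31, m2cafneg 30 or m2cafneg 31, and 11 without m2cafpos 27). A member with no read in a library could have had up to 0.0542 to 0.0683 CPM there.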
